A study of Mus musculus with 2 samples.

Results

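Claudins, cadherins and connexins are the membrane proteins that seal, hold together and electrically couple neighbouring cells. The 76 genes described here are the rows of the count table whose symbols name a claudin (27 genes), a numbered cadherin (23) or a connexin of the alpha, beta or gamma group (16), together with 10 junction partners, among them Tjp1, Tjp3, Ocln, F11r, Epcam, Ctnna1, Ctnnd1, Marveld2 and Pard3. They were chosen by symbol out of 27376 genes. RNA was sequenced from the fresh prostate tumour tissue of 2 mice aged 16 months, 1 library for the genotype Bcat_Only and 1 for the genotype Met_Bcat, in a series about HGF and MET signalling in prostate tumours driven by beta-catenin. The heading of the Bcat_Only column adds a beta-catenin exon allele and PB_Cre; PB usually stands for the probasin promoter, which is active in prostate epithelium, but the sources used here do not spell it out. The heading of the Met_Bcat column names no allele, and the labels do not say what its MET or beta-catenin alleles are or whether it carries Cre. With 1 library per genotype there is no replicate check, and every difference below compares 2 libraries, not 2 conditions.

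In an epithelium, classical cadherins such as E-cadherin bind the same cadherin on the next cell and are tied to actin through beta-catenin, alpha-catenin and p120-catenin. Claudins form the strands of the tight junction, where some close the space between cells and others form pores for ions and water, and the zonula occludens scaffolds anchor these strands inside the cell. Connexins assemble into the channels of gap junctions, through which small molecules pass from cell to cell. Beta-catenin itself has a second role as the nuclear effector of Wnt signalling, so the same protein serves the adherens junction and the pathway altered in these tumours.

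Both libraries held 19301062 and 20117724 reads assigned to genes, in the order Bcat_Only and Met_Bcat, which is also the order of every pair of values below. The genes of the junction set took 0.486% and 0.602% of these reads. Markers of prostate epithelium were present in both: the 13 luminal markers summed to 3955 and 8141 CPM (the read count relative to the TMM-scaled library size) and the 10 basal markers to 1016 and 2303 CPM. The makeup of the tissue differed in other ways. The 12 fibroblast markers summed to 25245 and 986 CPM, the 13 neutrophil and macrophage markers to 6305 and 413 CPM, the 10 smooth muscle markers to 623 and 67.9 CPM and the 12 endothelial markers to 627 and 388 CPM. The 6 seminal vesicle secretory genes summed to 6182 and 4.51 CPM, with Svs3a, Svs3b and Svs6 at 0 reads in Met_Bcat, as was the neutrophil gene Elane. In RNA of whole tissue, fewer cells of a type and less RNA per cell cannot be told apart, and the part of cell makeup in the differences below was not tested except where a value is given.

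Of the 76 genes, 44 had a mean of at least 1 CPM and were compared; the other 32 were nearly silent, with 7 at 0 reads in both libraries and 28 reads as the highest value. The rule for a difference was that the whole 95% exact interval of a gene's ratio lay at 2-fold or beyond. By this rule 4 genes were higher in Met_Bcat (Cdh22, Cldn14, Cdh17 and Gja1) and 11 were lower (Cldn2, Cldn15, Cldn10, Gja4, Cdh11, Gja5, Gjb2, Gjc1, Cdh12, Cldn5 and Cldn7). That is 9.09% and 25.0% of those compared, against 4.42% and 14.6% of all 14354 genes compared. The count is small, and 4 of the 15 genes (Cdh22, Cldn2, Cldn10 and Cldn15) reached the minimum through 1 library alone, so that they had to differ to be counted. With 4-fold in place of 2-fold, 0 genes were higher and 4 lower, beside 1.75% and 7.57% of all genes, and with 1.5-fold 7 were higher and 13 lower, beside 8.12% and 19.7%. The median log2 ratio of the 44 genes was 0.057, beside 0.030 for all genes. When libraries were scaled to the luminal markers, which lowers every log2 ratio by 0.73, the counts became 1 higher and 15 lower and the median turned to −0.71. All genes shift alike under this scaling: their median became −0.68, with 283 higher and 3734 lower, against 635 and 2102. The share of higher genes among the members past the rule was therefore bound to fall, and it went from 26.7% to 6.25%. Of the 44 ratios, 22 were above 1, and 6 under luminal scaling.

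**Figure D1:**
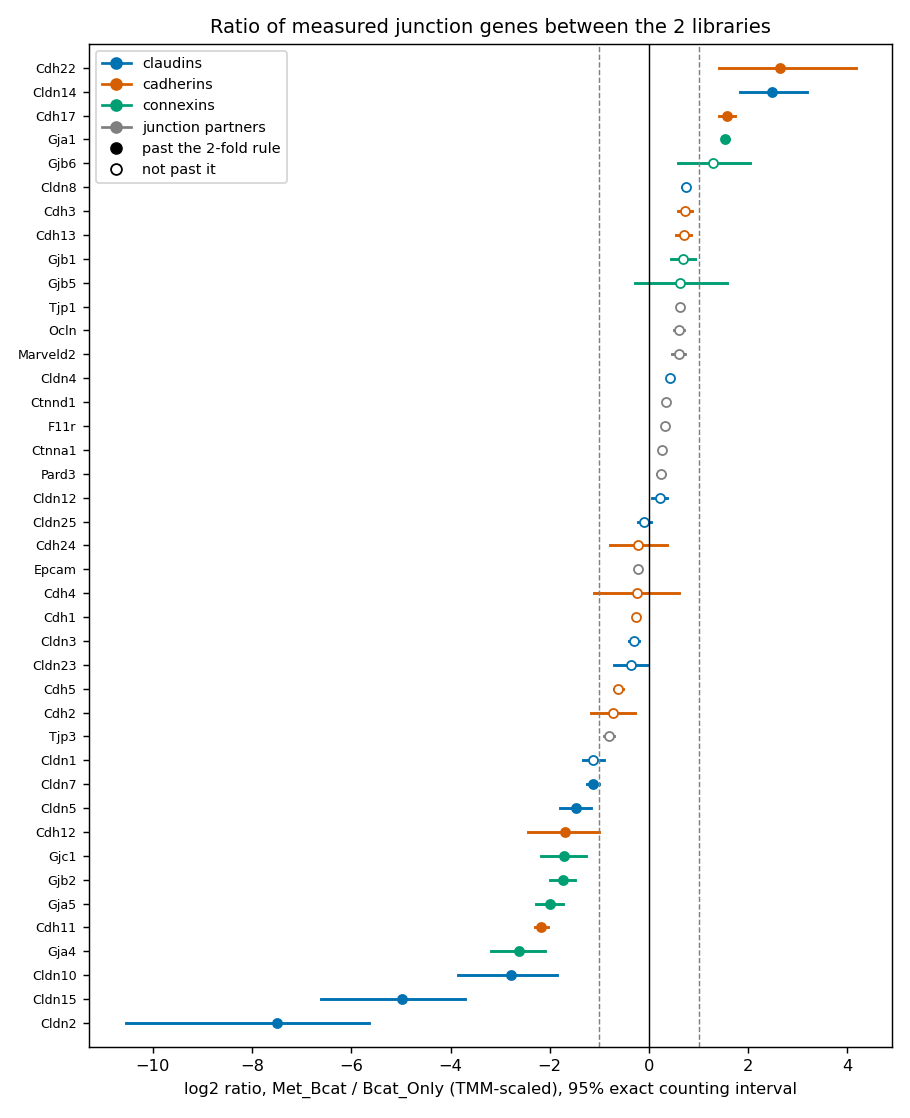
Ratio of Met_Bcat to Bcat_Only for 41 of the 44 junction genes compared, on a log2 axis, with lines for the 95% exact interval, which covers counting error only; filled points are past the 2-fold rule and dashed lines mark 2-fold. The points from Cldn8 to Tjp3 lie between the dashed lines, Cdh22, Cldn14, Cdh17 and Gja1 stand to the right, and Cldn2, Cldn15 and Cldn10 lie farthest to the left.

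The main adhesion receptors of the epithelium were abundant in both tumours, and neither Cdh1 nor Epcam passed the 2-fold rule. Cdh1, which encodes E-cadherin (ENSMUSG00000000303, mm9 chromosome 8, 109127251 to 109194146), had 16400 and 15686 reads, 890.2 and 744 CPM, and was 1.20-fold lower in Met_Bcat (95% exact interval 1.17 to 1.22). Per kilobase of exon it was the most abundant gene of the set in Bcat_Only, at 195 CPM, and the third in Met_Bcat, at 163 CPM. Epcam, an adhesion molecule of simple and progenitor epithelia (ENSMUSG00000045394, chromosome 17, 88035319 to 88050446), followed it closely, with 381 and 325 CPM, 1.17-fold lower (1.13 to 1.21). Under luminal scaling their log2 ratios were −0.99 and −0.96, still outside the rule. The ratio of Epcam to Cdh1 reads per kilobase was 0.960 and 0.980, and its change between the libraries, 1.02-fold (0.980 to 1.06), did not exceed counting error. A ratio of 2 genes within a library does not depend on how the libraries are scaled. All such pairs given here were picked with the values known.

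The genes of p120-catenin and alpha-catenin were slightly higher, while Ctnnb1, the beta-catenin gene, had 981 and 974 CPM. Ctnnd1, the p120-catenin gene, had 723 and 914 CPM, 1.26-fold higher (1.24 to 1.29), and Ctnna1, the alpha-catenin gene, 549.9 and 664 CPM, 1.21-fold higher (1.18 to 1.24). Their direction depended on the scaling: under luminal scaling the log2 ratios were −0.39 and −0.46. Neither came near the 2-fold rule.

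P-cadherin and N-cadherin, the other main classical cadherins, were far less abundant than E-cadherin. Cdh3, the P-cadherin gene typical of basal epithelial cells (chromosome 8, 109034791 to 109080808), had 665 and 1257 reads, 36.1 and 59.6 CPM, 1.65-fold higher (1.5 to 1.82). The ratio of Cdh3 to Cdh1 reads per kilobase was 0.0464 and 0.0917, a 1.98-fold change (1.79 to 2.18). Under luminal scaling the log2 ratio of Cdh3 was −0.0044. Of the 10 basal markers, 5 were higher by the rule in Met_Bcat, among them Krt5, 4.85-fold, and Krt14, 5.46-fold, and 1 was lower, Krt15, 10.9-fold (9.48 to 12.5). Cdh2, the N-cadherin gene of nerve, muscle and mesenchyme, was low in both tumours, with 111 and 77 reads, and its ratio to Cdh1 was 0.00384 and 0.00278. Cdh4, the retinal cadherin, had 26 and 25 reads, and Cdh15, the muscle cadherin, 2 and 0. Of the 6 transcription factors known to repress Cdh1, Snai1 was 4.70-fold lower (3.79 to 5.87) and Twist2 3.72-fold lower (2.22 to 6.48). Short of the rule, Twist1 was 1.86-fold lower (1.31 to 2.67) and Snai2 1.81-fold higher (1.46 to 2.24). Zeb2, the most abundant of the 6, had 2950 and 3217 reads. It was 1.05-fold lower, with an interval that includes no difference (0.998 to 1.10). Zeb1 had 2 reads in each library.

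**Figure D2:**
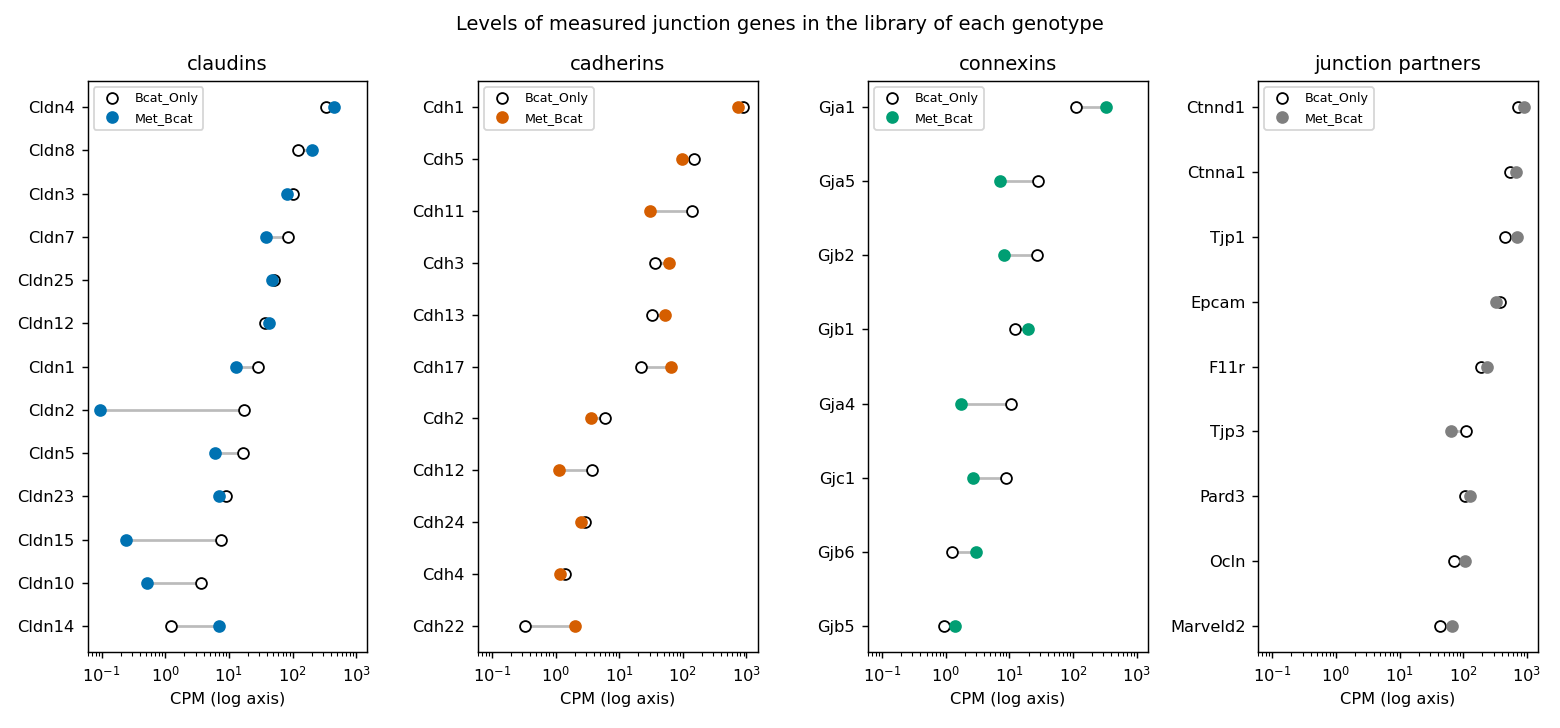
Level in CPM, on a log axis, of 41 of the 44 compared claudins, cadherins, connexins and junction partners in the Bcat_Only (open) and Met_Bcat (filled) library, 1 library each. Cdh1 and Cldn4 lead their families in both libraries, Cldn2 goes from 17.2 to 0.0949 CPM, and Gja1 from 112 to 325 CPM.

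Among the cadherins outside the classical group, Cdh11 and Cdh17 differed most among those with over 100 reads in both libraries. Cdh11, the cadherin of mesenchymal cells and osteoblasts (ENSMUSG00000031673, chromosome 8, 105156895 to 105309011), had 2571 and 654 reads, 139.5 and 31.0 CPM, 4.50-fold lower (4.13 to 4.91). It was the third cadherin of the Bcat_Only library per kilobase and made up 10.8% of all cadherin reads there (10.4% to 11.2%), against 2.92% in Met_Bcat (2.71% to 3.15%). The 12 fibroblast markers were all lower by the 2-fold rule in the same library. Their ratios ran from Thy1, 2.14-fold lower (2.01 to 2.28), to Dpt with 1601 and 1 reads, and their part in the Cdh11 difference was not tested. Cdh17, the liver-intestine cadherin (ENSMUSG00000028217, chromosome 4, 11685294 to 11745042), went the other way, with 405 and 1373 reads, 22 and 65.1 CPM, 2.96-fold higher (2.65 to 3.32). It made up 1.71% (1.55% to 1.88%) and 6.14% (5.83% to 6.46%) of cadherin reads. Under luminal scaling Cdh17 had a log2 ratio of 0.84 and no longer passed the rule.

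Apart from Cdh13 and Cdh5, the latter given with the vessel genes below, the rest of the cadherins were weakly expressed. Cdh22, named for pituitary and brain, had 6 and 43 reads, 6.26-fold higher (2.66 to 18.0). Cdh12, a cadherin of the brain, had 68 and 24 reads, 3.24-fold lower (2.01 to 5.40), and lost its call when libraries were scaled to total counts. Cdh13, the cadherin without a cytoplasmic tail that is held by a lipid anchor, had 600 and 1114 reads, 1.62-fold higher (1.47 to 1.80). Below the minimum, Cdh19, known from Schwann cells, had 16 and 1 reads, a ratio of 18.3-fold lower (2.84 to 768). The 8 nerve and Schwann cell markers summed to 329 and 148 CPM in the same libraries. Cdh23, of the links between sensory hair cell stereocilia, had 18 and 3 reads and shares 25834 bases with the opposite-strand gene 4632428N05Rik, with 2984 and 652 reads. Whether the counting used strand is not stated in the sources, so reads of overlapping genes cannot be assigned with certainty. Cdh16, the kidney cadherin, had 5 and 0 reads.

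The claudins showed the widest spread of the 4 groups, with 1 gene higher and 5 lower among the 13 compared, beside 4.42% and 14.6% of all genes. Cldn2, Cldn10 and Cldn15, 3 of the 5, reached the minimum through Bcat_Only alone. The change was not shared by the family: 4 log2 ratios lay above 0 and the median was −0.35. The upstream sequences of 3 claudins are printed here: Cldn4, because it was the most abundant claudin, and Cldn2 and Cldn15, because they had the lowest ratios of the 13. They are the 250 bases before the annotated start from RefSeq on build GRCm38.p6, a build other than the mm9 of the counts, at chr5:134946935-134947184, minus strand for Cldn4, chrX:139800558-139800807, plus strand for Cldn2 and chr5:136967619-136967868, plus strand for Cldn15. Capitals mark matches on either strand to the AP-1 letters TGANTCA, the E-box CAGGTG bound by factors of the Snail and Zeb type, or the TCF/LEF core CTTTGA.
Cldn4: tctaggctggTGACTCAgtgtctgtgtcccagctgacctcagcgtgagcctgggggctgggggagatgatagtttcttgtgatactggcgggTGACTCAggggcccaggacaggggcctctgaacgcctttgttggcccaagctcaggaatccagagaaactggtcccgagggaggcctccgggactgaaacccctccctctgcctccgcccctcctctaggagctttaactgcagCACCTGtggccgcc
Cldn2: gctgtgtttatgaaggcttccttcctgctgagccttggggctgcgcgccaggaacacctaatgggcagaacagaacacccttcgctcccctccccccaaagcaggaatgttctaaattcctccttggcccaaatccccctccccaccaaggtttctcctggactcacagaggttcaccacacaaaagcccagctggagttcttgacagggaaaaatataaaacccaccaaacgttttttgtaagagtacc
Cldn15: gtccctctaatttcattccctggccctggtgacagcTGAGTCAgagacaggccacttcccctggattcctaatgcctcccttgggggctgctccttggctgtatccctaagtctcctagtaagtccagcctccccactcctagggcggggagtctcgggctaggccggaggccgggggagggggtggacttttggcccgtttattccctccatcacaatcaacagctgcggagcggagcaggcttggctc
The Cldn4 window holds 2 AP-1 matches, starting 240 and 158 bases before the start site, and 1 E-box. The Cldn15 window holds 1 AP-1 match, and the Cldn2 window none of the 3 motifs.

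Among the claudins known to form pores, Cldn2, Cldn15 and Cldn10 were nearly absent from Met_Bcat. Cldn2, which forms channels for small cations and water in leaky epithelia (ENSMUSG00000047230, chromosome X, 136335367 to 136345925), had 316 and 2 reads, 17.2 and 0.0949 CPM, a ratio of 181-fold (49.6 to 1499). Cldn15, another cation channel claudin known from the intestine (ENSMUSG00000001739, chromosome 5, 137442486 to 137451728), had 137 and 5 reads, 31.3-fold lower (13.1 to 98.1). Cldn10, whose isoforms conduct cations or anions (ENSMUSG00000022132, chromosome 14, 119187093 to 119274711), had 66 and 11 reads, 6.86-fold lower (3.60 to 14.4). These 3 genes were grouped by their known pores after their values were seen, and they summed to 28.2 and 0.854 CPM. Each reached the minimum through Bcat_Only alone, so that it had to differ to be counted. The seminal vesicle genes, given above, were lower in the same library, and whether the 3 claudins came from that or another epithelium beside the tumour was not tested.

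The sealing claudins of epithelium, also grouped after their values were seen, were present in both libraries in different proportions. Cldn4 (ENSMUSG00000047501, chromosome 5, 135420996 to 135422804) had 6081 and 9386 reads, 330.1 and 445 CPM, 1.35-fold higher (1.31 to 1.39), or a log2 ratio of −0.30 under luminal scaling. Per kilobase it was the third gene of the set in Bcat_Only and the first in Met_Bcat, at 182 and 246 CPM. Cldn8, a sealing claudin of distal tubules and other tight epithelia, had 121 and 202 CPM, 1.67-fold higher (1.58 to 1.75). Cldn3, close to Cldn4 in sequence and position, was on the other side, with 101 and 82.2 CPM, 1.23-fold lower (1.16 to 1.32). Cldn7, found along the lateral membrane (ENSMUSG00000018569, chromosome 11, 69778281 to 69781387), had 1561 and 813 reads, 84.7 and 38.6 CPM, 2.20-fold lower (2.02 to 2.39), just inside the rule and outside it under total counts. Cldn1, which seals the epidermis, had 28.4 and 13.0 CPM, 2.18-fold lower (1.88 to 2.53), just outside the rule.

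Within the tissue's claudin pool Cldn4 and Cldn8 had larger shares in Met_Bcat. Cldn4 made up 40.7% of claudin reads in Bcat_Only (39.9% to 41.5%) and 49.9% in Met_Bcat (49.2% to 50.6%), and Cldn8 15.0% (14.4% to 15.6%) and 22.6% (22% to 23.2%). Cldn7 made up 10.5% (9.97% to 11%) and 4.32% (4.03% to 4.62%). The ratio of Cldn4 to Cldn7 reads per kilobase was 4.19 in Bcat_Only and 12.4 in Met_Bcat, a 2.96-fold change (2.70 to 3.25). Cldn7 and Epcam bind each other in epithelial membranes, and their ratio also changed: Epcam to Cldn7 was 4.30 and 8.05, a 1.87-fold change (1.71 to 2.06).

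**Figure D3:**
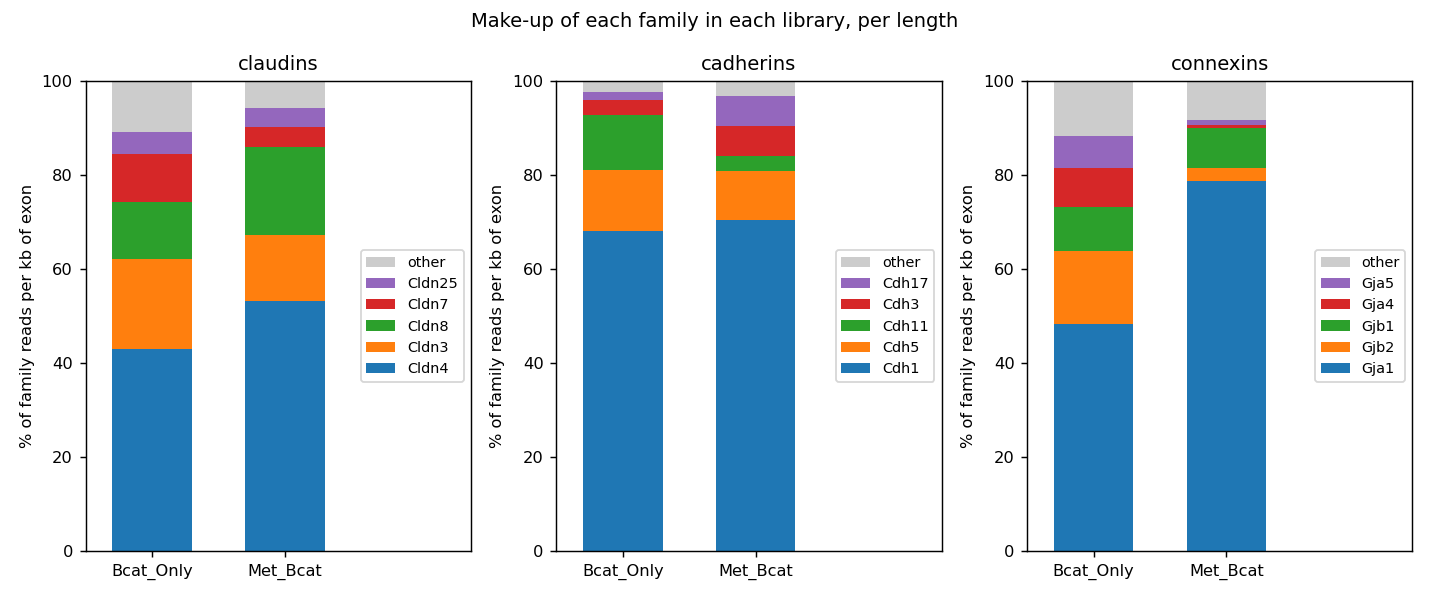
Percent of each family's reads per kilobase of exon taken by its 5 leading genes of the Bcat_Only library, with all others in grey, in the Bcat_Only and Met_Bcat library. Cdh1 holds 68.1% and 70.4% of the cadherins, Cldn4 goes from 43.0% to 53.2% of the claudins, and Gja1 from 48.3% to 78.8% of the connexins.

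Cldn14, a claudin of inner ear and kidney that limits cation passage (ENSMUSG00000047109, chromosome 16, 93919276 to 94009082), had the highest ratio of the 13 claudins compared. It had 23 and 147 reads, 1.25 and 6.97 CPM, 5.59-fold higher (3.58 to 9.09), and was past the 2-fold rule under each of the 3 other scalings. Its level stayed far under that of Cldn4, at 3.55 CPM per kilobase in Met_Bcat. Cldn12 had 36.5 and 42.3 CPM and Cldn23 9.01 and 6.97 CPM. The row named Cldn25 had 51.0 and 47.7 CPM, but its identifier, ENSMUSG00000022744, is that of Cldnd1 in the newer reference, and the near-silent rows Cldn26 and Cldn27 are those of Tmem114 and Tmem235. Cldn11, the claudin of myelin and of Sertoli cells, had 28 and 7 reads and lay below the minimum. The other 11 claudins had at most 5 reads in a library.

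Gja1, the connexin of most gap junctions in heart, stroma and many epithelia, was 2.90-fold higher in Met_Bcat and made up most of the connexin reads there. The upstream sequences of Gja1 and Gjb2 are shown because these connexins were the most abundant ones per kilobase in Bcat_Only and differed in opposite directions. The windows lie at chr10:56377050-56377299, plus strand and chr14:57104703-57104952, minus strand, from the same RefSeq build and with the same motifs in capitals.
Gja1: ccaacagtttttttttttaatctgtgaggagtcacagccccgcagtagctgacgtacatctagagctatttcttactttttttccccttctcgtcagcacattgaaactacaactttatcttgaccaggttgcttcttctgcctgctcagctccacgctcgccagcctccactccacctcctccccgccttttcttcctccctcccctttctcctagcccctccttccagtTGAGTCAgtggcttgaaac
Gjb2: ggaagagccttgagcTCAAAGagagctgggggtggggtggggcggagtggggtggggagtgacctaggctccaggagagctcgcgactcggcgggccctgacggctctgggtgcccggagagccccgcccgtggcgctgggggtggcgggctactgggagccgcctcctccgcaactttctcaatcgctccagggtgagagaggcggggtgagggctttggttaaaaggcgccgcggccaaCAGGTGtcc
The Gja1 window holds 1 AP-1 match, beginning 19 bases before the start site. The Gjb2 window holds 1 TCF/LEF core and 1 E-box.

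Gja1 (ENSMUSG00000050953, chromosome 10, 56097106 to 56110225) had 2065 and 6849 reads, 112 and 325 CPM, with an interval of 2.76 to 3.05 for its ratio. It accounted for 52.7% of connexin reads in Bcat_Only (51.2% to 54.3%) and 84.7% in Met_Bcat (83.9% to 85.5%). Under luminal scaling its log2 ratio was 0.81 and the call was lost. Fibroblasts and smooth muscle also express Gja1, and the markers of both were lower in the library where it was higher. Which cells the Gja1 reads came from was not tested. Gjb2, a connexin of secretory and stratified epithelia (ENSMUSG00000046352, chromosome 14, 57717437 to 57723539), had 509 and 175 reads, 27.6 and 8.30 CPM, 3.33-fold lower (2.80 to 3.97). The ratio of Gja1 to Gjb2 reads per kilobase was 3.14 and 30.3, a 9.64-fold change (8.05 to 11.6). Gjb1, the connexin of liver and glandular cells, had 12 and 19.4 CPM, 1.61-fold higher (1.36 to 1.90), or −0.045 on the log2 scale under luminal scaling.

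Connexins known from skin were low, and neither Gjb6 nor Gjb5 passed the rule. Gjb6 had 23 and 64 reads, 2.43-fold higher (1.49 to 4.11), and Gjb5 had 17 and 30 reads, 1.54-fold higher with an interval that includes no difference (0.824 to 2.98). Gja3, the lens connexin, had 1 and 11 reads, a ratio of 9.62-fold (1.40 to 414), and the retinal connexin Gja10 had none.

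Junction genes of the vessel wall were lower in Met_Bcat, as were most endothelial markers. Of 5 such genes, 4 passed the rule as lower, beside 14.6% of all genes compared. Cldn5, the claudin of endothelium (ENSMUSG00000041378, chromosome 16, 18776940 to 18778353), had 305 and 125 reads, 2.79-fold lower (2.26 to 3.47). The arterial connexins were lower by more: Gja5 (ENSMUSG00000057123, chromosome 3, 96708616 to 96881339) had 527 and 151 reads, 3.99-fold lower (3.33 to 4.82), and Gja4 had 194 and 36 reads, 6.16-fold lower (4.30 to 9.06). Gjc1, a connexin of vascular smooth muscle and heart, had 161 and 56 reads, 3.29-fold lower (2.41 to 4.54). Cdh5, the VE-cadherin gene that holds endothelial cells together, had 2729 and 2036 reads, 148 and 96.6 CPM, only 1.53-fold lower (1.45 to 1.62).

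The endothelial markers served as a measure of endothelial RNA in these libraries, which leaves out the smooth muscle of the vessel wall. Their median log2 ratio was −1.22, with 8 of 12 past the rule and 1 above 0, Eng at 1.55-fold higher (1.46 to 1.64). Set against the median plain ratio of these markers, Cdh5 lay 0.63 above it on the log2 scale and Cldn5 0.24 below. Gjc1 lay 0.47, Gja5 0.75 and Gja4 1.38 below. Smooth muscle markers, whose cells also carry Gja4 and Gjc1, had a median of −3.58. Gja5 overlaps the opposite-strand gene Gpr89 over 654 bases, and Gpr89 had 857 and 1295 reads, a difference in the other direction.

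**Figure D4:**
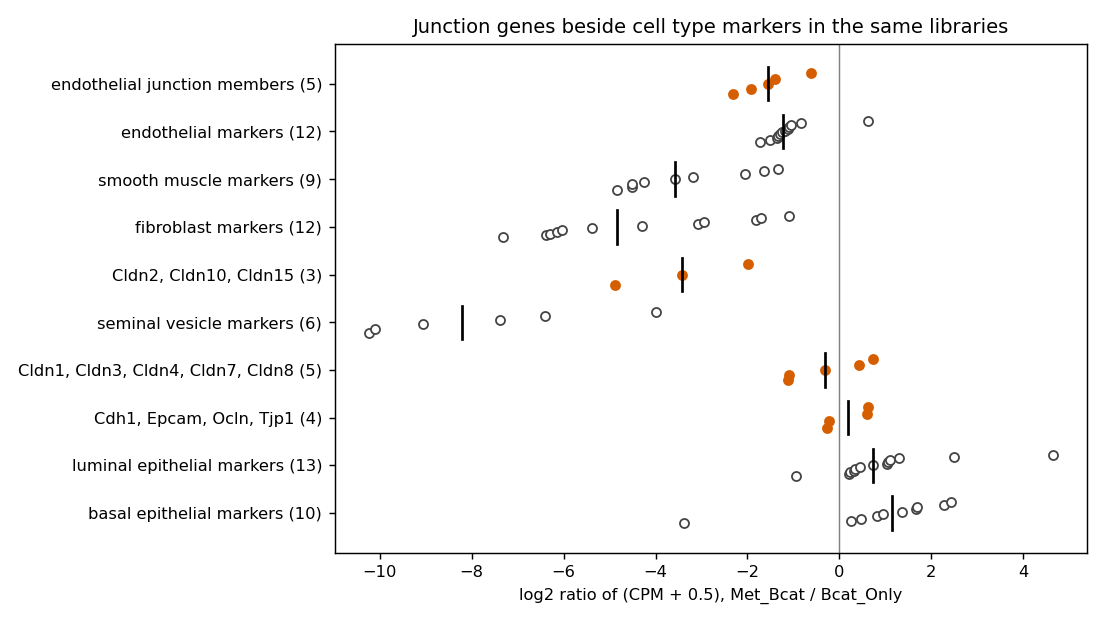
Difference between the libraries, as the log2 ratio of CPM plus 0.5, for groups of junction genes (filled) and lists of cell type markers (open), with the number of genes in brackets and a bar at each median. Both groups of claudins were formed after their values were seen. Cldn2, Cldn10 and Cldn15 reached the minimum through Bcat_Only alone, so that they had to differ to be counted. The genes drawn as endothelial junction members include Gjc1, a connexin of vascular smooth muscle and heart. Their median of −1.55 is the value of Gjc1. The endothelial markers have a median of −1.22, with Cdh5 above both, and the luminal markers have a median of 0.73.

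Outside the claudins, the tight junction genes among the junction partners of the set differed by less than the 2-fold rule, and their directions were mixed. Ocln, the occludin gene, had 1305 and 2263 reads, 70.8 and 107 CPM, 1.52-fold higher (1.42 to 1.62). Marveld2, which encodes tricellulin, the protein of corners where 3 cells meet, had 43.9 and 66.5 CPM, 1.51-fold higher (1.39 to 1.65). Tjp1, the first zonula occludens scaffold, had 453 and 698 CPM, 1.54-fold higher (1.5 to 1.58). F11r, an immunoglobulin-type adhesion molecule of the tight junction, was 1.26-fold higher (1.20 to 1.31), and the polarity scaffold Pard3 1.19-fold (1.12 to 1.26). Tjp3 was on the other side, with 110 and 63.3 CPM, 1.74-fold lower (1.62 to 1.86), and the ratio of Tjp1 to Tjp3 reads per kilobase went from 1.69 to 4.54, a 2.68-fold change (2.49 to 2.89). Under luminal scaling Tjp3 passed the rule as lower, and the medians of the scaffolds and of Ocln, Marveld2 and F11r turned to −0.42 and −0.13.

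Other junction genes outside the set were counted from a list of 36, of which 34 were compared. By the rule 1 was higher and 4 lower, 2.94% and 11.8%, near the share among all genes, and the median was 0.086. The nectin gene Pvrl3 was 2.33-fold higher (2.09 to 2.61). The lower genes were the angiomotin-like gene Amotl2, 3.14-fold (2.89 to 3.42), the virus receptor and junction protein gene Cxadr, 2.66-fold (2.55 to 2.77), and Jam2 and Jam3, adhesion molecules also found on endothelium, 2.78-fold (2.37 to 3.26) and 3.13-fold (2.43 to 4.07). Of 7 other connexin and pannexin genes, 2 were compared, and Panx1 had 471 and 263 reads, 2.05-fold lower (1.76 to 2.39), short of the rule.

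Several of these genes lie side by side on mm9, and neighbours did not always share a direction. On chromosome 14, Gjb2 was lower while Gjb6, 18.6 kb away, was 2.43-fold higher. On chromosome 5, Cldn4 and Cldn3 stand 39.3 kb apart and differed in opposite directions by small amounts, and on chromosome 8 the same holds for Cdh3 and Cdh1, 46.4 kb apart. Ocln and Marveld2, 43.2 kb apart on chromosome 13, were 1.52-fold and 1.51-fold higher. Of the 3 other scalings, luminal scaling put both genes of the Cldn4 and Cldn3 pair, and of the Cdh3 and Cdh1 pair, on the lower side.

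Upstream windows were found in the RefSeq table for 51 of the 76 genes, 70 windows in all. The AP-1 letters were in 4 of the 70 windows (5.71%), against 6.75% of all 32851 windows, the E-box letters in 15 (21.4%), against 17.2%, and the TCF/LEF core in 8 (11.4%), against 13.8%. Of the 11 windows of genes lower in Met_Bcat, 1 held an AP-1 match, 2 an E-box and 1 a TCF/LEF core. Of the 5 windows of higher genes, 1 held an AP-1 match, 1 an E-box and 0 a TCF/LEF core. A match is a description of letters and not a bound site.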

How the data were processed

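The genes and lists were chosen with earlier results of these data known. Per the labels' protocols, 200 ng of total RNA per sample entered a stranded mRNA kit with 10 PCR cycles, and the libraries were read from 1 end over 51 bases. The authors deposited whole-number read counts per gene on mm9, with coordinates and a total exon length per gene in bases, per the file headers. TopHat2 (version 2), HTSeq and edgeR are the tools in the submitters' processing notes, and the counting settings are not stated there. Columns were matched to samples by the sample number in the heading.

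Counts were scaled with TMM factors (edgeR 4.0.16, R 4.3.3), 0.955 for Bcat_Only and 1.05 for Met_Bcat. Ratios carry 95% exact (Clopper-Pearson) intervals given each gene's summed reads, shares exact binomial intervals, and ratios of gene pairs conditional odds-ratio intervals. All cover counting error only, because neither genotype has a replicate library from which variation between mice could be measured. They also treat every read as a separate draw. Copies made by PCR break this assumption, and no molecular identifiers marked such copies. The intervals may therefore be too narrow even for counting error. The floor for 0 reads was 3 reads, 0.163 and 0.142 CPM. Medians use log2 of CPM plus 0.5, which understates differences of weak genes. A symbol on several rows counted once in a list, by its row with most reads. On simulated Poisson counts with no added variation, the intervals of 95.5% of 14354 genes held the true ratio. A value near 95% was bound to result, so this checks the calculation only. The genes named are those past the 2-fold rule, 15 fixed epithelial and endothelial ones, and others given as values. Alternatives were total counts, DESeq2 1.42.0 size factors, scaling to luminal or endothelial markers, other minimums, folds and a larger pseudocount. No test between genotypes was possible. Some genes are counted in their groups but not reported here by name.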

Additional observations from a re-analysis of the deposited data

How the results depend on the processing

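Scaling is the choice the small differences rest on. Under total counts, which add 0.13 to each log2 ratio, the rule left 4 genes higher and 9 lower, without Cldn7 (−0.99) and Cdh12 (−1.25), both on the log2 scale of CPM plus 0.5. Among all genes 773 were then higher and 1902 lower, against 635 and 2102. DESeq2 size factors gave the same 4 and 11 genes. Scaling to the luminal markers gave 1 higher and 15 lower genes of the set and 283 and 3734 of all genes; Cldn14 remained higher, Cdh17 and Gja1 did not, and Cdh22 fell under the minimum. Of the 44 genes, 22 had ratios above 1 under TMM, 23 under total counts and 6 under luminal scaling. With a minimum of 10 CPM the counts were 2 higher and 5 lower among 28 genes, and with 0.2 CPM both stayed within 1.5 times. The shares among all genes at these 2 minimums are not given here, so these counts cannot be set against them. With a 1.5-fold rule 7 were higher, and with a 4-fold rule 0 were higher and 4 lower. With the endothelial markers as the scale, the median of the 5 junction genes of the vessel wall, Gjc1 among them, was −0.44, against −1.55. Total counts, DESeq2 and luminal scaling each shift all log2 ratios alike, by at most 0.73, which is under 2-fold. No gene past the rule could therefore change direction under them. No paired analysis was possible because each genotype has 1 library, and no library could be left out.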
